A study of Saccharomyces cerevisiae with 46 samples.

Results

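The kinetochore genes of budding yeast described here are 40 genes chosen by the function of their products, out of 6002 nuclear protein-coding genes, and all 40 were found by name in the R64 gene table. The kinetochore is the protein assembly that joins centromeric DNA to the microtubules of the spindle. Its inner layer holds the centromeric histone Cse4, its reader Mif2, the DNA-binding CBF3 complex and the CTF19 complex. The MIND complex links this layer to the outer one, where the NDC80 and DAM1 complexes hold the microtubule and Spc105 with Kre28 forms the platform to which the checkpoint proteins Bub1 and Bub3 bind. Most of these complexes have a fixed stoichiometry, while their genes are scattered over the chromosomes, so the gain of a chromosome adds copies of some subunits and not of others.

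The study addressed chromosome-specific aneuploidy in cells deficient in Bub3, a spindle checkpoint protein. Genomic DNA from overnight cultures of the W303 strain was sequenced, and read depth was given as a log2 copy ratio per bin of 1 kb in 46 samples. A set of 20 lines (A1 to A4, B2, B3, C1 to C4, D1 to D4, E3, E4, F3, F4, G1 and G4) had a non-evolved and an evolved sample each, lines C2, E3 and G4 had a further sample labelled evolved_Bub3, and wildtype LY1 was sampled once per state (3 samples). The labels give no genotype, allele, ploidy, culture age or time of evolution, nor whether lines are separate clones, so p-values measure the spread between these lines. Recovered reads came to 1961866 to 3770032 per sample, and the bins of a member held 116 to 1538 reads, for a counting error of 0.04 to 0.13 (SE, log2). Reads carry no molecular identifiers, so this error covers counting alone.

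The level of a gene was the mean log2 copy ratio of the 1 to 4 bins it overlaps minus the baseline of its sample, so that 0 is the dosage of most chromosomes and 1 a doubling over it. A level at or above 0.5 was called extra copies. Levels are relative to the sample, so a change shared by the whole genome leaves them at 0. In a culture, a lower level can also be a full gain carried by part of the cells, and these cannot be told apart.

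**Figure D1:**
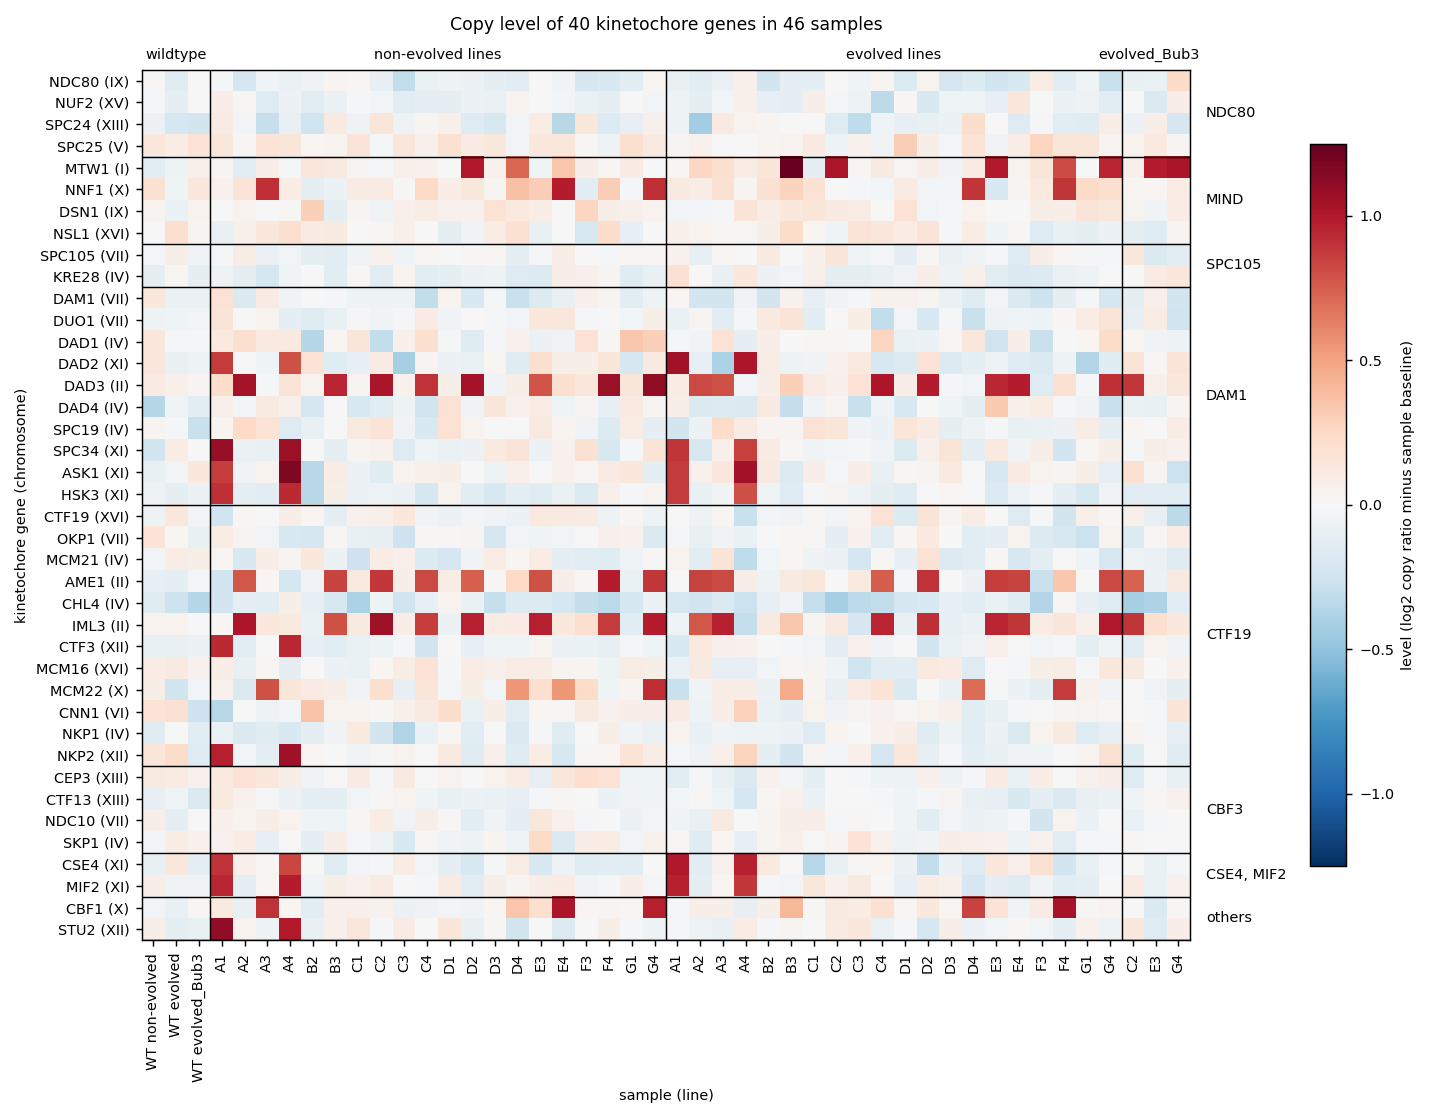
Level (colour, log2 copy ratio minus the sample baseline) of the 40 kinetochore genes (rows, with chromosome, grouped by subcomplex) in 46 samples (columns, grouped by state). Raised levels appear in MIND, DAM1, CTF19, CSE4 with MIF2, CBF1 and STU2, and the NDC80, SPC105 and CBF3 rows stay between -0.43 and 0.31.

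Extra copies of kinetochore genes were found in 13 of 20 lines before evolution and in 13 of 20 after it, and in no wildtype sample. In the non-evolved samples 16 of 40 members (40%) were at or above 0.5 in at least 1 line, against 35.1% of 5954 genes with a level in every sample. In the evolved samples 13 of 40 (32.5%) were, against 26.7% of genes. The members made 54 calls over the non-evolved samples (6.75% of members by samples, against 6.19% for genes) and 44 over the evolved samples (5.50%, against 5.22%). These shares lie near those of all genes. Without lines A1 and A4, 7 members were at or above 0.5 before evolution and 7 after it. In the wildtype 0 of 40 members were called, against 0.235% of genes, and their levels ran from -0.36 to 0.23 over its 3 samples.

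Over all 46 samples 16 of 40 members had extra copies at least once, against 35.3% of genes, and they lie on I, II, X, XI and XII. MTW1 lies on I, and AME1, IML3 and DAD3 lie on II. NNF1, MCM22 and CBF1 lie on X, CSE4, MIF2, DAD2, SPC34, ASK1 and HSK3 on XI, and CTF3, NKP2 and STU2 on XII. III and VIII, which were also gained in some samples, carry no member. The other 24 members lie on chromosomes that never reached a level of 0.3 in any of the 46 samples, and their levels ran from -0.43 (SPC24) to 0.35 (CNN1). The SD of such a member over the 46 samples was 0.07 to 0.15 (median 0.11), which gives the spread of a gene level without a chromosome gain.

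Few values lay near the threshold. Of 1840 levels, 103 were at or above 0.5, 3 of them under 0.7, and 14 lay from 0.3 up to 0.5. The values just inside were those of MCM22, which overlaps a single bin, at 0.54 in E4 non-evolved, 0.55 in D4 non-evolved and 0.70 in D4 evolved. The values just outside were those of MCM22 (0.46) and CBF1 (0.41) in B3 evolved, where X stood at 0.38 as a whole. In D4 non-evolved chromosome X stood at 0.28 as a whole and NNF1 and CBF1 at 0.37 and 0.35, so the MCM22 call in that sample was the 1 call without a chromosome at or above 0.5. In E4 non-evolved X stood at 0.90, and MCM22 lay below it.

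The NDC80, CBF3 and SPC105 complexes had no member with extra copies in any sample. NDC80 (IX), NUF2 (XV), SPC24 (XIII) and SPC25 (V) encode the rod that grips the microtubule, and each lies on a different chromosome. Their levels stayed between -0.43 and 0.31 in all 46 samples. NDC80 itself had a lowest level of -0.30, a median of -0.08 and a highest of 0.04 in the non-evolved samples and -0.27, -0.12 and 0.10 in the evolved ones, so the ranges of the states overlapped. CEP3, CTF13 (both XIII), NDC10 (VII) and SKP1 (IV), the subunits of CBF3, of which Skp1 also serves in ubiquitin ligases, stayed between -0.23 and 0.25. SPC105 (VII) and KRE28 (IV), the platform for Bub1 and Bub3, stayed between -0.22 and 0.19. These 3 of 7 subcomplexes, with 10 members, thus kept balanced dosage in every sample at the threshold of 0.5.

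CSE4 and MIF2 were the sole subcomplex raised as a whole, and this was seen in A1 and A4 alone. CSE4 (YKL049C, XI 346075 to 346764 in R64), the histone H3 variant that marks the centromere, stood at 0.91 in A1 and 0.84 in A4 non-evolved, and at 1.0 and 0.96 in the evolved samples. The other 18 lines reached at most 0.10 before and 0.19 after evolution, so these 4 samples did not overlap the rest. MIF2 (YKL089W, XI 273394 to 275043), which binds the Cse4 nucleosome, stood at 0.95 and 0.98, then 0.97 and 0.88. The other lines reached at most 0.11 and 0.14. Both genes lie on XI, and CSE4 minus MIF2 ran from -0.48 to 0.26 over the 46 samples, so neither had extra copies without the other. The genes for the Cse4 chaperone Scm3 (SCM3, IV) and for the ubiquitin ligase Psh1 that removes misplaced Cse4 (PSH1, XV) had no extra copies in any line.

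**Figure D2:**
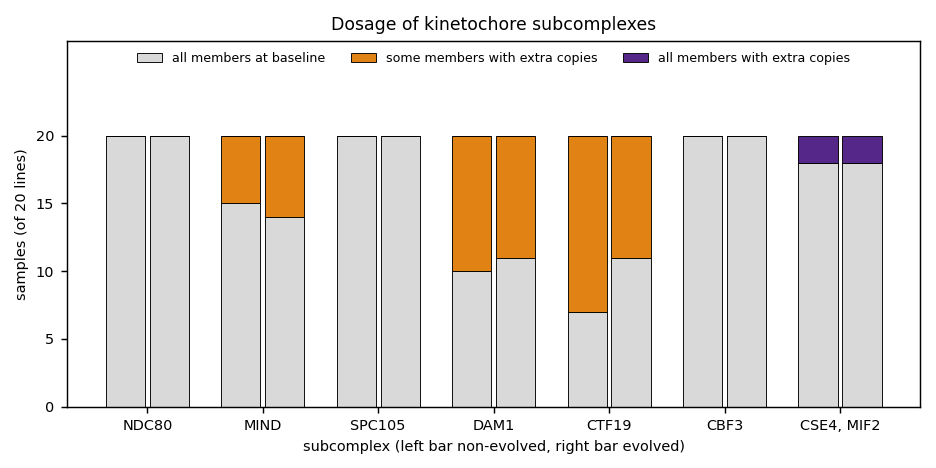
Number of samples (vertical axis, of 20 lines) in which all, some or no members of a subcomplex (horizontal axis) had a level at or above 0.5, with the non-evolved samples on the left and the evolved samples on the right of each pair of bars. CTF19 was unbalanced in 13 and 9 samples, DAM1 in 10 and 9 and MIND in 5 and 6, and CSE4 with MIF2 was raised whole in 2 and 2.

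The MIND complex gained MTW1 or NNF1 and never DSN1 or NSL1. MTW1 (YAL034W-A, I 79718 to 80587) encodes the subunit the complex is named for. Its levels in the non-evolved samples had a lowest value of -0.13, a median of 0.05 and a highest of 1.0, with extra copies in D2 (1.0) and D4 (0.72). In the evolved samples these values were -0.11, 0.10 and 1.24, with extra copies in B3 (1.24), C2 (1.01), E3 (0.99), F4 (0.81) and G4 (0.95). No line had extra MTW1 in both states. NNF1 (YJR112W, X 637030 to 637635), whose product pairs with Mtw1, ran from -0.14 through a median of 0.10 to 0.98 in the non-evolved samples, with extra copies in A3 (0.91), E4 (0.98) and G4 (0.92). It ran from -0.19 through 0.11 to 0.90 in the evolved samples, with extra copies in D4 (0.89) and F4 (0.90). DSN1 (IX) and NSL1 (XVI), the genes of the other pair within MIND, stayed between -0.20 and 0.30.

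At the threshold of 0.5, MTW1 and NNF1 were raised together in a single sample. Over the 46 samples, 8 had extra MTW1 alone, 4 extra NNF1 alone, 1 both (F4 evolved) and 33 neither. The difference MTW1 minus NNF1 ran from -0.91 in G4 non-evolved to 1.18 in E3 evolved, and stayed between -0.36 and 0.26 in the 33 samples with neither. In F4 evolved the difference was -0.08, and 2 of 4 MIND genes had extra copies. Below the threshold, NNF1 stood at 0.37 and X at 0.28 in D4 non-evolved, beside extra MTW1. In B3 evolved NNF1 stood at 0.27 and X at 0.38, again beside extra MTW1. In E4 non-evolved MTW1 stood at 0.35 and I at 0.22, beside extra NNF1. Elsewhere the uncalled gene lay lower, as with MTW1 at 0.01 in G4 non-evolved and NNF1 at 0.00 in C2 evolved.

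The CTF19 complex was unbalanced in 13 of 20 lines before evolution, the most of the 7 subcomplexes, with at most 3 of 12 members raised. After evolution it was unbalanced in 9 of 20, as many as DAM1. It also holds the most genes, 12 on 7 chromosomes, against 10 on 4 for DAM1, and the counts were not scaled for size. AME1 (YBR211C, II 646158 to 647132) encodes a subunit that binds MIND. Its levels had a lowest value of -0.24, a median of 0.11 and a highest of 0.98 in the non-evolved samples and -0.27, 0.12 and 0.90 in the evolved ones. IML3 (YBR107C, II 453793 to 454530), whose product pairs with Chl4, ran from -0.15 through 0.13 to 1.06 and from -0.30 through 0.11 to 1.0. Both had extra copies in the same 8 non-evolved lines (A2, B3, C2, C4, D2, E3, F4 and G4) and the same 7 evolved lines (A2, A3, C4, D2, E3, E4 and G4). The called levels of AME1 began at 0.75 and 0.76, and its other levels ended at 0.25 and 0.33, which left a gap between raised and unraised samples in both states.

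The partners of AME1 and IML3 stayed at their own baseline. OKP1 (VII), whose product forms a dimer with Ame1, reached at most 0.12 in the 16 samples with extra AME1, and AME1 minus OKP1 ran from 0.72 to 1.06 there, against -0.33 to 0.54 in the other 30. CHL4 (IV) reached at most -0.07 in the 16 samples with extra IML3, and IML3 minus CHL4 ran from 0.97 to 1.30, against -0.12 to 0.59 elsewhere. CHL4 was low in the wildtype as well (-0.36 to -0.15), so part of this difference is a lasting offset of its bins. CTF19 and MCM21, the remaining pair of the COMA group with Ame1 and Okp1, differed by -0.27 to 0.31 and were never called.

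The CTF3 group of the CTF19 complex was raised from both sides and never as a whole. MCM22 (YJR135C, X 676059 to 676778) had extra copies in A3 (0.80), D4 (0.55), E4 (0.54) and G4 (0.92) non-evolved and in D4 (0.70) and F4 (0.88) evolved. CTF3 (YLR381W, XII 879723 to 881924) stood at 0.93 in A1 and 0.94 in A4 non-evolved and reached at most 0.12 in the evolved samples. MCM16 (XVI), the third subunit of this group, was never called. NKP2 (XII) stood at 0.97 and 1.05 in A1 and A4 non-evolved while its partner NKP1 (IV) stood at -0.08 and -0.19. CNN1 (VI), a further link to the NDC80 complex, was never called.

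**Figure D3:**
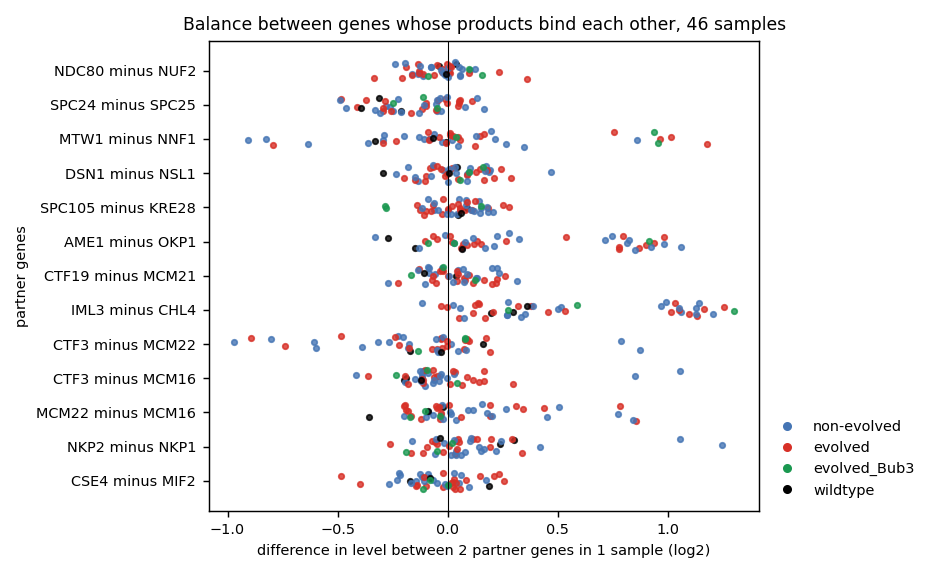
Difference in level (horizontal axis, log2) between genes whose products bind each other (rows) in each of 46 samples (points, coloured by state). AME1 minus OKP1 splits into samples at 0.72 or above and samples at 0.54 or below, MTW1 minus NNF1 spreads to both sides, and CSE4 minus MIF2 and NDC80 minus NUF2 stay within -0.48 to 0.36.

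The DAM1 complex, which couples kinetochores to microtubule ends, was raised in different subunits in different lines. DAD3 (YBR233W-A, II 684977 to 685261) had extra copies in the same samples as AME1 and IML3. Its levels ran from -0.04 through a median of 0.18 to 1.11 in the non-evolved samples and from -0.16 through 0.14 to 1.01 in the evolved ones, with called levels beginning at 0.78 and 0.79. DAD2, SPC34, ASK1 and HSK3, all on XI, had extra copies in both states of A1 and A4 and nowhere else. In A1 they stood at 0.87, 1.08, 0.86 and 0.91 before and 1.05, 0.90, 0.87 and 0.87 after evolution. In A4 they stood at 0.79, 1.08, 1.17 and 0.93, then 1.01, 0.86, 1.05 and 0.81. Thus 4 of 10 subunits were raised in A1 and A4 and 1 of 10 in the samples with extra DAD3, in no sample both.

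The other 5 genes of the DAM1 complex were never called. DAM1 and DUO1 (both VII) and DAD1, DAD4 and SPC19 (all IV) stayed between -0.36 and 0.34 in all samples. DAD3 minus DAD1 ran from 0.61 to 1.33 in the 16 samples with extra DAD3. In the other 30 it ran from -0.19 to 0.40.

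CBF1 and STU2, in none of these subcomplexes, followed X and XII. CBF1 (YJR060W, X 548759 to 549814), a transcription factor that also binds the first element of the centromere, had extra copies in A3 (0.90), E4 (1.01) and G4 (0.97) non-evolved and in D4 (0.84) and F4 (1.03) evolved. STU2 (YLR045C, XII 235037 to 237703), a microtubule polymerase found at kinetochores, stood at 1.10 in A1 and 1.0 in A4 non-evolved. In the evolved samples of these lines it stood at -0.02 and 0.10, within the range of the other lines.

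Members on the same chromosome moved together. The 3 members on II were all called in 16 samples and in no other sample was any of them called, and their spread within a called sample was 0.07 to 0.29, against 0.03 to 0.46 in the others. The 6 members on XI differed by 0.18 to 0.38 in the 4 samples where they were called and by 0.14 to 0.53 elsewhere. The 3 members on XII differed by 0.12 to 0.18 in the 2 samples where they were called. On X the 3 members were called together in 5 of 6 samples, and D4 non-evolved, with MCM22 alone, was the exception.

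By sample, 26 of the 40 line samples had extra kinetochore genes, and all 26 had at least 1 unbalanced subcomplex. In 18 samples 2 of 7 subcomplexes were unbalanced, in 4 samples 1, and in 4 samples 3. A2 and C4 in both states, B3, C2, E3 and F4 non-evolved and A3, D2 and E4 evolved had extra AME1, IML3 and DAD3. In these samples CTF19 and DAM1 were unbalanced and the other 5 at baseline, that is, with no member at or above 0.5. Among them, E3 non-evolved had NNF1 at 0.31 and X at 0.25, and A3 evolved had MTW1 at 0.20 and I at 0.26. D2 non-evolved and E3 and G4 evolved had MTW1 beside these genes, so that MIND was unbalanced too. G4 non-evolved had NNF1, MCM22 and CBF1 beside AME1, IML3 and DAD3, again with MIND, DAM1 and CTF19 unbalanced. Its 6 raised members were 15% of members, against 12.7% of all genes in the same sample.

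The remaining samples with extra copies had fewer or other subcomplexes raised. A3 and E4 non-evolved and D4 evolved had NNF1, MCM22 and CBF1, F4 evolved had these with MTW1, and D4 non-evolved had MTW1 and MCM22, with MIND and CTF19 unbalanced in all 5. B3 and C2 evolved had MTW1 alone at or above 0.5, and MIND was the only unbalanced subcomplex at that threshold. In B3 evolved X stood at 0.38 as a whole, with MCM22 at 0.46, CBF1 at 0.41 and NNF1 at 0.27. In C2 evolved X stood at 0.04. A1 and A4 non-evolved had 9 members raised (22.5% of members, against 13.7% of all genes in the same sample), with DAM1 and CTF19 unbalanced and CSE4 with MIF2 raised whole. Evolved, the same lines had 6 members raised (15%, against 5.46% and 5.58% of genes), with DAM1 alone unbalanced. G1, F3, D3, D1, C3, C1 and B2 had all 7 subcomplexes at baseline in both states.

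The lines with extra copies differed in the depth over BUB3. BUB3 (XV 379781 to 380806) overlaps 2 bins, and its level relative to XV was -1.47 to -0.98 over both states of the 11 lines with extra members on I, II or X. It was -0.25 to 0.07 in A1 and A4, the 2 lines with extra members on XI or XII, and -0.29 to 0.11 in the 7 lines with none. For 3 of these 11 lines the evolved_Bub3 sample lay the other way, with C2 at 0.76, E3 at 1.42 and G4 at 1.34, as did the wildtype one at 1.19. The wildtype's other samples stood at 0.00 and -0.03. The sets of lines were defined by the raised members, so this is a description and was not tested, and no genotype was read from it.

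Evolution of the lines was then examined by comparing the samples of each line between states. No kinetochore gene passed the correction for a difference between evolved and non-evolved samples. A sign-flip permutation test, two-sided and paired by line over 20 lines, with 100000 resamples and Benjamini-Hochberg adjustment over 5954 genes, called 0 of 40 members and 0.00% of all genes, while 1 member and 234 genes (3.93%) had an unadjusted p under 0.05. With limma and the line as block, 0 members and 0 genes were called, and 1 and 194 had an unadjusted p under 0.05. The mean evolved minus non-evolved difference of the members ran from -0.12 to 0.17 with a median of -0.02, against a median of -0.01 over all genes. The members on 1 chromosome share its gains and are not independent tests.

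The spread between lines exceeded the mean difference for each member below. MTW1 averaged 0.13 ± 0.27 (SD, n = 20) before and 0.31 ± 0.43 after evolution, a difference of 0.17 ± 0.56 (adjusted p = 0.986, sign-flip permutation test), and it was higher in 12 of 20 evolved samples. NKP2 and STU2 had differences of -0.12 ± 0.29 and -0.11 ± 0.33 (adjusted p = 0.986 for both, the same permutation test), each higher in 8 of 20 lines. Without lines A1 and A4 these differences were -0.03 and -0.01. DAD3 had 0.45 ± 0.46 and 0.36 ± 0.43, a difference of -0.09 ± 0.43 (adjusted p = 0.986, permutation test), higher in 9 lines. The member with an unadjusted p under 0.05 was CEP3 of CBF3, with 0.06 ± 0.09 and -0.02 ± 0.08 and a difference of -0.08 ± 0.14 (p = 0.0209, adjusted p = 0.986, permutation test), lower in 14 of 20 lines.

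**Figure D4:**
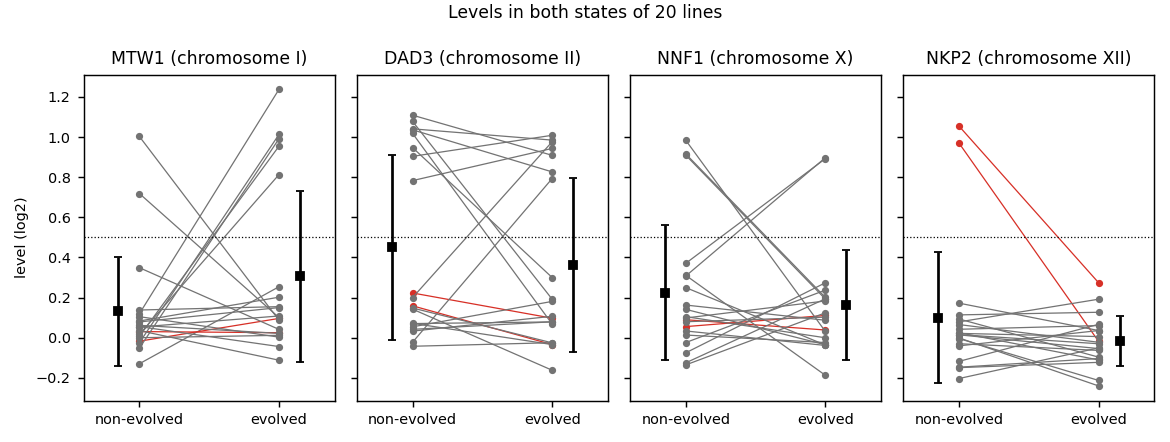
Level (vertical axis, log2) of MTW1, DAD3, NNF1 and NKP2 in the non-evolved and evolved samples of 20 lines (points joined by line, with A1 and A4 in red). Squares and bars give the mean and SD, and the dotted line marks 0.5. Lines cross the dotted line in both directions for MTW1, DAD3 and NNF1, and 2 lines fall below it for NKP2.

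Many calls were made in a single state of a line. Of 70 calls, 28 recurred in a line before and after evolution, 26 were made only before evolution and 16 only after it. Calls in a single state were thus 42 of 70 (60%), against 69.0% of the calls over all genes, and this difference was not tested. A1 and A4 made 12 of the 28 shared calls, with the 6 members on XI, and 6 of the 26 calls seen before evolution alone, with CTF3, NKP2 and STU2. Of the 13 lines with raised members, A2 and C4 had the same members in both states. At the threshold of 0.5, A3, B3, C2, E4 and F4 shared none. Of the chromosomes raised before evolution, II still stood at 0.25 in F4 evolved, with AME1 at 0.33. In B3 evolved II stood at 0.11, with IML3 at 0.34 and DAD3 at 0.30. In C2 evolved II stood at 0.06, and in A3 and E4 evolved X stood at 0.03 and 0.00. AME1, IML3 and DAD3 were raised in both states of 5 lines, in the non-evolved state alone of 3 and in the evolved state alone of 2. NNF1 and CBF1 were each raised in the non-evolved state alone of 3 lines and the evolved state alone of 2, and in both states of 0.

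No member passed the test for a change relative to its own chromosome. With the median of its chromosome in the same sample taken off, the members' differences between evolved and non-evolved samples ran from -0.08 to 0.04. limma, with the line as block, called 0 of 40 members and 0.00% of the 5954 genes, and 1 member and 278 genes had an unadjusted p under 0.05. The member was again CEP3, with a difference of -0.08 ± 0.03 (SE, n = 20; limma adjusted p = 0.973). Over the settings tried, this difference of CEP3 ran from -0.090 to -0.006. The paired sign-flip permutation test on the same values also called 0 members, with 1 at an unadjusted p under 0.05.

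The comparison of evolved_Bub3 with evolved samples could be made in lines C2, E3 and G4. Members with extra copies were MTW1, AME1, IML3 and DAD3, 4 of 40, against 15.6% of all genes at or above 0.5 in at least 1 of the 3 samples. Of 120 member by line calls, 10 changed between evolved and evolved_Bub3 samples, a share that was not counted over all genes. They concerned these 4 members alone, 4 of 40, against 15.4% of genes with a changed call in at least 1 of the 3 lines. Without C2, 6 calls changed. In C2, MTW1 went from 1.01 (evolved) to 0.06 (evolved_Bub3), while AME1 stood at -0.01 and 0.74, IML3 at 0.11 and 0.89 and DAD3 at 0.07 and 0.88. The evolved_Bub3 sample of C2 thus had the same raised members as its non-evolved one, with DAM1 and CTF19 unbalanced and MIND at baseline.

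In E3 and G4 the genes on II were below 0.5 in the evolved_Bub3 sample and MTW1 was raised in both. In E3, AME1 went from 0.87 (evolved) to -0.07 (evolved_Bub3), IML3 at 0.95 and 0.21 and DAD3 at 0.94 and 0.06, while MTW1 stood at 0.99 and 0.98. In G4, AME1 stood at 0.82 and 0.12, IML3 at 1.0 and 0.13 and DAD3 at 0.91 and 0.15, while MTW1 stood at 0.95 and 1.02. MIND was then the only unbalanced subcomplex in both lines.

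Between evolved and evolved_Bub3 samples the mean change was -0.30 ± 0.91 (SD, n = 3; p = 0.75, exact two-sided sign-flip permutation test) for AME1 and -0.30 ± 0.57 (p = 0.75, the same exact test) for MTW1. IML3 and DAD3 had differences of -0.28 ± 0.92 and -0.28 ± 0.95 with the same p. With 3 lines this test cannot go below 0.25. The other 36 members changed by -0.43 to 0.52, and the highest value was that of NDC80 in G4, which stood at -0.27 and 0.24. Its chromosome, IX, stood at 0.04 and 0.08 as a whole. The evolved_Bub3 sample of G4 had the fewest recovered reads of all samples (1961866). In the wildtype all 40 members were below 0.5 in the 3 states.

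**Figure D5:**
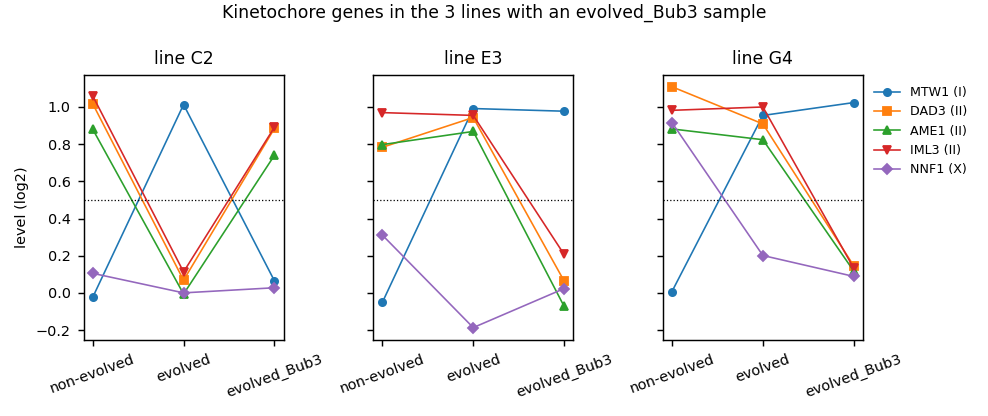
Level (vertical axis, log2) of MTW1, DAD3, AME1, IML3 and NNF1 in the non-evolved, evolved and evolved_Bub3 samples of C2, E3 and G4 (panels). Lines join the samples of a line, and the dotted line marks 0.5. In C2 MTW1 and the genes on II change places at each step, and in E3 and G4 the genes on II lie below 0.5 in the evolved_Bub3 sample alone.

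A further list held 27 other genes of chromosome attachment, among them checkpoint, passenger, motor and histone H4 genes. In each of the non-evolved and evolved states 9 of 27 had extra copies in at least 1 line, against 35.1% and 26.7% of all genes. The sign-flip permutation test called 0 of 27 between the states, with 2 at an unadjusted p under 0.05 and a lowest adjusted p of 0.986. The 9 were MAD2, MAD3 and BIR1 on X, SLI15, STU1, KIP1 and HHF1 on II, BIK1 on III and NBL1 on VIII. SLI15 and BIR1, for the scaffold and a targeting subunit of the passenger complex, were raised in 8 and 3 non-evolved and 7 and 2 evolved lines, while IPL1, for its kinase, was raised in none. HHF1, for histone H4 that pairs with Cse4 or H3, was raised in 8 lines of each state, and the other H4 gene, HHF2 on XIV, in none. SLI15, STU1 and KIP1, also on II, were raised in 7 evolved lines. The level of HHF1 reached 0.41 in the wildtype. It was 0.44 or above in all 3 evolved_Bub3 samples of the lines, of which C2 alone had II gained. BUB1 and MPS1, which act with Bub3 on Spc105, had no extra copies. BUB3 itself, on this list, was at or above 0.5 in 3 of 3 evolved_Bub3 samples of the lines.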

How the data were processed

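Genomic DNA libraries (Nextera tagmentation) were sequenced, per the labels' protocols. Trimmomatic 0.39, BWA 0.7.17, Picard 2.27.1 and GATK are named in the submitters' processing notes, without parameters. The authors deposited log2 copy ratios for 12165 bins of 1 kb in each sample, with R64 sequence names per the file headers. The deposited log2 values of a sample stepped by whole reads (100% within 0.01 of a whole number), which gave the read depths. Bins held a median of 130 to 292 reads per sample. The bin-to-bin noise of log2 ratios, a robust SD taken from differences between neighbouring nuclear bins, was 0.12 to 0.16. Mitochondrial bins took 4.92 to 17.2% of reads.

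Gene positions came from the RefSeq R64 table, where NDC10 is listed as CBF2. The baseline of a sample was the median of its 16 chromosome medians, and bins without reads (258 to 288 nuclear bins per sample) were left out. A level in every sample was available for 5954 genes. A subcomplex was called unbalanced where some but not all members were at or above 0.5 and raised whole where all were. With no member at or above 0.5 it was called at baseline. Unless stated, tests were two-sided. Python 3.11.15 with numpy 2.4.6, pandas 2.3.3 and scipy 1.17.1 was used, and limma 3.58.1 in R 4.3.3. Adjusted p-values under 0.05 were called. The limma and sign-flip steps were checked on simulated levels relative to the chromosome, with noise drawn separately for each gene. That check held no gains shared along a chromosome, so it does not cover the test on levels. Lines were paired by the code shared between sample titles. Deviations of a line's paired samples correlated at -0.11 to 0.20 (median 0.04), over 0.1 in 6 of 20 lines, so the pairing rests on the labels. No pair of samples of a state agreed within sampling noise (chi-square per degree of freedom 1.69 or more).

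The members and lists were chosen with earlier results of these data known. All 40 members are named, those ever at or above 0.5 with values, up to 2 in full per chromosome and more where their subcomplex needed it. In all, 23 other settings were tried, covering the threshold, the bins used, the baseline, the pairing, the test and lines left out. Gene sequences were not used here.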

Additional observations from a re-analysis of the deposited data

How the results depend on the processing

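The counts moved by over 1.5 times under 2 alternatives. Without lines A1 and A4, members with extra copies in at least 1 sample numbered 7 before and 7 after evolution (16 and 13 with all lines), and subcomplexes raised whole numbered 0 and 0 (2 and 2), because those lines hold all calls on XI and XII. Leaving out 1 line of the evolved_Bub3 comparison gave 6 to 7 changed calls (10 with all 3 lines), with the lowest without C2, each over fewer lines by construction. The other 165 comparisons of a count with its alternatives stayed within 1.5 times. With a threshold of 0.3 the members numbered 18 and 15 and the unbalanced subcomplexes over samples 32 and 27, against 28 and 24 at 0.5. Called members and genes between states were 0 in the paired test, with no replicate block and with limma and the line as replicate block. The sign of the mean difference changed over the alternatives for 4 members (NUF2, NSL1, CTF3 and CBF1), and for 11 relative to their chromosome, none of them called. At 1 to 4 bins per gene, with a counting error of up to 0.13, a gain carried by a small part of the cells was not detectable from 1 gene. Levels of whole chromosomes rest on more bins, and some lay under 0.3 yet off the baseline. X stood at 0.28 in D4 non-evolved and II at 0.25 in F4 evolved. The chromosomes that never reached 0.3 ran from -0.07 to 0.18.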
